A study of Mus musculus with 4 samples.

Results

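The 6-month mouse testis library was compared with the 3-week library, to describe which transcripts are added as late spermatids and adult somatic cells appear in the testis. All entries of the deposited tables were compared, and 37606 of 112302 had an RPKM (reads scaled to gene length and to total reads) of at least 1 at either age. Of these, 10613 were protein-coding genes by symbol. The 2 libraries belong to a series of 4 BALB/C testis libraries, taken before birth on embryonic days 14 (E14) and 18 (E18) and after birth at the 2 ages compared, with 1 library per stage. All 4 were made from whole testis RNA bought from a supplier (Zyagen), the labels name no genetic change or treatment, and the number of animals pooled per library is not given in the sources used here. Reads behind the RPKM numbered 33952471 at 3 weeks and 35801602 at 6 months. There was 1 library at each age, so no difference has a replicate check and no p-value is given. "Higher" and "lower" stand for a difference of log2(RPKM + 1), 6 months minus 3 weeks, past 1 or -1, which is 2-fold on that scale, and describe these libraries.

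In the mouse testis the first wave of spermatogenesis begins shortly after birth, and spermatocytes enter meiosis before round spermatids appear. Elongating spermatids, which replace histones with transition proteins and then protamines and build the acrosome and tail, come last. Many of their messenger RNAs are made in round spermatids and stored before translation. The adult generation of Leydig cells, which makes testosterone, also matures around puberty, while Sertoli cells stop dividing. In whole tissue RNA, fewer cells of a type and less RNA per cell cannot be told apart.

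Among protein-coding genes, 1208 were higher at 6 months (11.4%) and 996 were lower (9.38%), with a median difference of -0.27. This balance turned with the settings: 2053 were higher and 305 lower after rescaling by the median of ratios, 974 and 1543 after rescaling over protein-coding genes, and 1615 and 2446 at a pseudocount of 0.1. Large differences lay mostly on the higher side: 525 genes were higher and 52 lower by at least 4-fold, and 122 against 7 by at least 16-fold. The exact 95% counting interval of the ratio lay wholly on 1 side of 1 for 1208 of the 1208 higher genes and 995 of the 996 lower ones. That interval covers counting error alone, and PCR copies are not separate molecules. The higher genes together made up 6.21% of all protein-coding RPKM at 3 weeks and 37.3% in the adult, and the lower genes 24.2% and 5.69%. Of the higher genes, 484 were below 1 RPKM at 3 weeks, 405 were below 1 RPKM in all 3 earlier libraries, and 1165 had their highest level of the series at 6 months. Of the lower genes, 773 had their highest level at 3 weeks, 173 at E18 and 50 at E14. Over all entries the counts were 4182 higher (11.1%) and 6062 lower (16.1%), so 40.8% of the entries past 2-fold were higher. Entries can share reads, so these are not counts of separate transcripts. That split moved with the scaling: it was 71.2% after rescaling by the median of ratios, 49.1% over ribosomal protein genes and 29.2% over protein-coding genes, which shifted the median of all entries by 0.40, 0.10 and -0.16.

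**Figure D1:**
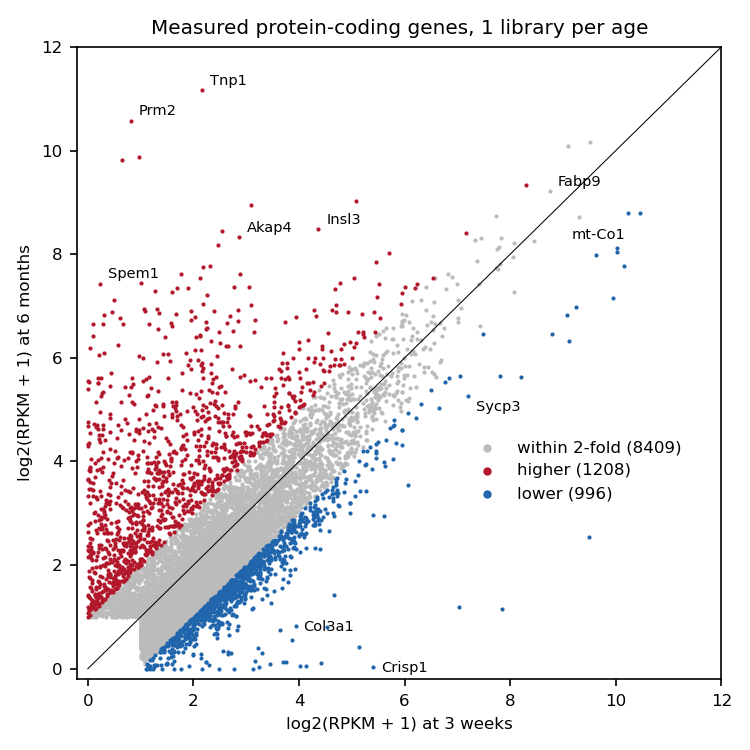
Level of each measured protein-coding gene at 3 weeks (x axis) and 6 months (y axis), both as log2(RPKM + 1), with 1 library per age; the line marks equal levels. The 1208 higher genes (red) reach far above the line, up to Tnp1 and Prm2, while 52 of the 996 lower genes (blue) are past 4-fold.

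Among protein-coding genes, the largest increases were those of the proteins that pack sperm DNA. An entry of the NONCODE collection, with no gene symbol, lay among them (0.677 and 1006 RPKM). Its position is not known here, so it may count reads of a named gene. Another NONCODE entry had the same recovered reads as the gene Rprl3 (32656 and 120). Prm2, a protamine, had 0.166 RPKM at E14 and 0.283 at E18, then 0.760 at 3 weeks and 1528 in the adult. The other protamine, Prm1, stood at 0.192, 0.175, 0.573 and 905.5 RPKM at the same stages. Both were under 1 RPKM in the 3 earlier libraries and among the 10 most abundant genes in the adult one. The transition proteins, which bridge the exchange of histones for protamines, followed: Tnp1 had 3.46 and 2300 RPKM, and Tnp2 0.964 and 937. The ratio of 6 months to 3 weeks was 665 for Tnp1 (95% interval 504.5 to 896) and 2010 for Prm2 (1020 to 4657), resting on 50 and 8 reads at 3 weeks. Tnp1 shares exonic positions with the antisense gene 1700027A15Rik (0.361 and 105.5 RPKM), and whether the counting used strand is not given in the sources used here. Together these 4 genes took 0.00664% of protein-coding RPKM at 3 weeks and 5.59% at 6 months.

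Promoters of 7 genes that were higher at 6 months are shown here because the text below turns on an 8-base word. Prm1, Prm2, Tnp1 and Tnp2 are shown as the most abundant spermatid nucleus genes, and Lelp1, Gsg1 and Akap4 were added as examples with the word after their matches had been seen. Each is a 180-base window on the gene's strand, from 150 bases before to 30 after the transcription start, from RefSeq on GRCm38.p6, with matches to TGANNTCA in capitals.
Tnp1, chr1:73015870-73016049, strand -: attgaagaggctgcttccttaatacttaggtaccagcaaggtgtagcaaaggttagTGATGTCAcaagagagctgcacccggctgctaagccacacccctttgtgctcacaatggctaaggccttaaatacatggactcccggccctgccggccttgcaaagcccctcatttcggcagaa
Prm1, chr16:10796794-10796973, strand -: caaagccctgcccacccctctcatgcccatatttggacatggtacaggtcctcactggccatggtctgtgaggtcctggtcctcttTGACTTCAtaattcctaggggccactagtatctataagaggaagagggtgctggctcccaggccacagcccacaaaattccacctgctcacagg
Lelp1, chr3:92142725-92142904, strand -: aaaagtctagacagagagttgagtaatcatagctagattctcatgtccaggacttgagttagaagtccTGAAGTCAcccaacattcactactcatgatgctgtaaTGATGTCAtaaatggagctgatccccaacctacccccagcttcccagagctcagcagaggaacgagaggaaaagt
Gsg1, chr6:135254307-135254486, strand -: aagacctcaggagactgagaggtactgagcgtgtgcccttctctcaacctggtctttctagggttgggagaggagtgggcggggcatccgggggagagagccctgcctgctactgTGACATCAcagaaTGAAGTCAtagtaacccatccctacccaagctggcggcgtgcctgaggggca
Akap4, chrX:7067365-7067544, strand +: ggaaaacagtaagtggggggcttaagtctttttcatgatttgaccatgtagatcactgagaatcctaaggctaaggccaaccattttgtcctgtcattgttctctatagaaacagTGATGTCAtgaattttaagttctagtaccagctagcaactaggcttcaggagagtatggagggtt
Prm2, chr16:10792076-10792255, strand -: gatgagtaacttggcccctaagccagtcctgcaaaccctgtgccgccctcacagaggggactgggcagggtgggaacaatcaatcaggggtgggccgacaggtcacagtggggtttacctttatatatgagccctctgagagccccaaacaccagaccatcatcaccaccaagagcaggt
Tnp2, chr16:10788626-10788805, strand -: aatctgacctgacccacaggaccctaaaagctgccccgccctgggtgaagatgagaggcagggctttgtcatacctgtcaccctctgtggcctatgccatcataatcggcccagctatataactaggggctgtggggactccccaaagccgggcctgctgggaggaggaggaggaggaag
Prm2 and Tnp2 have no match in their 300-base windows, and neither do Spem1, Cabs1 and Tssk6, whose differences (7.21, 6.63 and 6.37) exceeded those of Gsg1 (5.91) and Akap4 (5.47). Gsg1 and Akap4 have a second promoter each in the table, which has no match for Gsg1 and 1 for Akap4. Lelp1, a small proline-rich protein gene, stood at 0.237 RPKM at 3 weeks and 113 at 6 months and has a pair of matches. Gsg1, a germ cell gene, also has a pair and stood at 4.84 and 349 RPKM, sharing positions with Fam234b on the other strand. Slfnl1, not shown, stood at 0.535 and 108 RPKM and has 1 match. The match in Tnp1 starts 94 bases before the transcription start and that in Prm1 64 bases before.

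Among genes higher at 6 months, the share of promoters with TGANNTCA was greater the larger the difference. Of 4 words searched, all were sought in windows of 300 bases, 250 before to 50 after the start, on either strand except for TATAAA, which was read on the gene's strand. The cyclic AMP response element TGACGTCA was in 1.79% of all 32851 promoters of the table, 3.24% of those of measured protein-coding genes, 2.39% of those of higher genes, 4.96% of those at least 16-fold higher and 1.99% of those of lower genes. Its looser form TGACGTNA gave 2.93%, 5.02%, 3.43%, 5.79% and 4.33%, and TATAAA 8.32%, 4.13%, 3.83%, 2.48% and 4.44%, in the same order. None of these 3 was in a window of Prm1, Prm2, Tnp1 or Tnp2. TGANNTCA, which includes TGACGTCA, was added after these shares had been seen. It was in 14.1% of all promoters, 11.7% of those of measured genes, 20.1% of those of higher genes, 45.5% of the 121 promoters of genes at least 16-fold higher and 7.72% of those of lower genes.

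Read by size of the difference, TGANNTCA was in 11.1% of the 18 promoters of genes lower by 4-fold or more, 7.65% of those lower by 2 to 4-fold and 10.8% of those within 2-fold, so the lower side showed no such order. It was then in 13.3% at 2 to 4-fold higher, 20.9% at 4 to 8-fold, 31.4% at 8 to 16-fold, 37.8% at 16 to 32-fold and 57.4% of the 47 promoters at 32-fold or more. Base composition moved along the same scale: the median GC content was 60.7% for genes within 2-fold and 51.7% at 32-fold or more, and the median number of CpG 21 and 3. All promoters of the table, at a median GC of 52.7% and 7 CpG, held the word in 14.1% of cases. Among promoters with at most 8 CpG alone, the share was 17.8% within 2-fold, 27.1% at 4 to 8-fold and 61% of 41 promoters at 32-fold or more, against 18.5% of all such promoters in the table. By central bases, TGATGTCA or its complement TGACATCA was the commonest form at 16-fold or more, in 24% of promoters against 3% of those of measured genes, and TGACCTCA or TGAGGTCA was in 11.6% against 1.86%. Promoters were found for 8232 of the 10613 measured genes and 100 of the 122 at least 16-fold higher. A match is a run of letters, not a shown binding site.

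**Figure D2:**
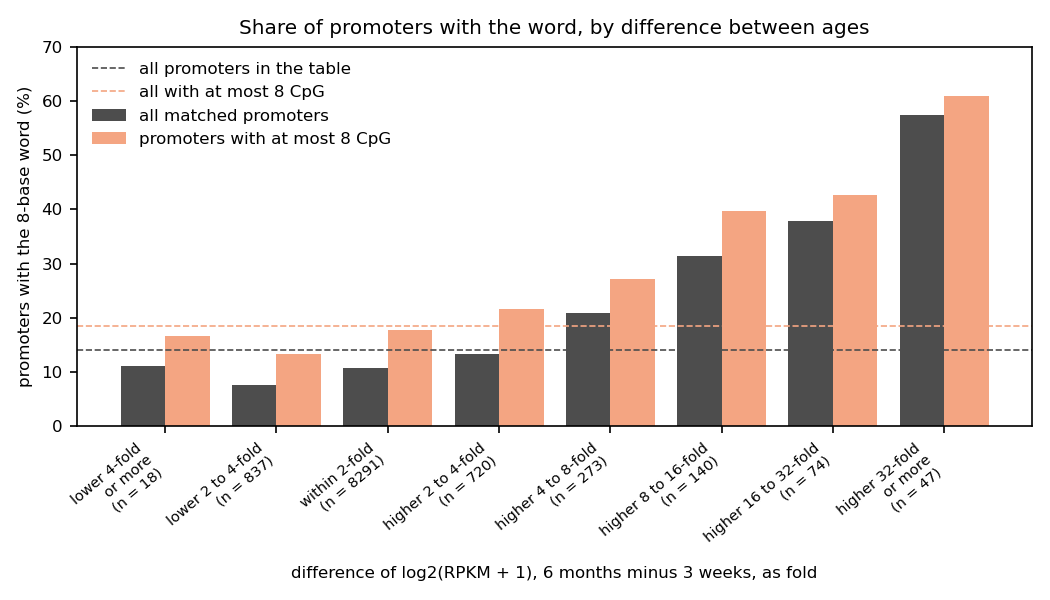
Share of RefSeq promoters (y axis, percent) that hold the 8-base word, by difference between the ages (x axis); dark bars count all matched promoters, light bars those with at most 8 CpG, and dashed lines mark all promoters of the table. Dark bars go from 10.8% within 2-fold up to 57.4% at 32-fold or more higher, and are at 7.65% and 11.1% on the lower side.

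Spermatid nuclear genes were in part higher at 6 months and in part within 2-fold. Of 22 genes of the list, 20 were measured, 11 were higher and 0 lower, with a median of 1.54. Beside protamines and transition proteins, the linker histones of elongating spermatids were higher: H1fnt stood at 0.9995 RPKM at 3 weeks and 173.5 at 6 months, and Hils1 at 3.996 and 219. The variants that enter chromatin earlier did not pass 2-fold. Hist1h1t, the linker histone of spermatocytes, had 132.5 and 124 RPKM, and the testis histones Hist1h2ba (630 and 420 RPKM) and Hist1h2aa (61.1 and 39.5) were already present. Brdt, a bromodomain reader of acetylated histones, had 23.9 and 11.95 RPKM. Chd5, a chromatin remodeller, and Cdyl were higher, with differences of 1.57 and 1.51.

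Accessory structures of the sperm tail were higher, while most genes of the axoneme were not. The outer dense fibres and fibrous sheath wrap the axoneme along the tail. Of 21 such genes 20 were measured, 14 were higher and 0 lower (median 2.34). Odf1, the main outer dense fibre protein, had 4.53 RPKM at 3 weeks and 287 at 6 months. Akap4, the main scaffold of the fibrous sheath, stood at 6.29 and 323 RPKM. Oaz3, a germ cell antizyme, had 7.52 and 496 RPKM and shares positions with the opposite-strand genes Mrpl9 and Tdrkh. In the midpiece, where mitochondria wrap the tail, 12 of 18 measured genes were higher and 1 lower (median 2.03). Its capsule protein Smcp stood at 6.39 and 197 RPKM, Spata18 at 1.70 and 66.4, and Spata19 at 7.33 and 164, while Slc25a31, a carrier of ADP and ATP, was lower (5.35 and 2.16 RPKM). Gpx4, the selenoprotein that hardens the capsule, had 29.4 and 118 RPKM.

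In the axoneme, the microtubule core, 9 of 64 measured genes were higher (14.1%, beside 11.4% of protein-coding genes) and 2 lower, with a median of -0.08. The median was 0.40 after rescaling by the median of ratios and 0.05 over ribosomal protein genes, so its sign depended on scaling. On the scale of log2(RPKM + 1), which shrinks the changes of low genes, no axoneme gene was higher by 4-fold. The dynein heavy chain Dnah8 stood at 102 and 61.5 RPKM, the radial spoke gene Rsph1 at 266.5 and 154, and Meig1, of the manchette and flagellum, at 349 and 303. The largest increases were those of 1700007K13Rik (3.88 and 13.8 RPKM), the adenylate kinase Ak8 (15.6 and 42.5) and Dnah3 (1.03 and 4.23). Ccdc39, a ruler of axoneme repeats, was lower (19.97 and 5.36 RPKM). At E18 the summed RPKM of the list was 50.96, at 3 weeks 1770 and at 6 months 1723, whereas that of the fibre and sheath list was 24.5, 649 and 2587.

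**Figure D3:**
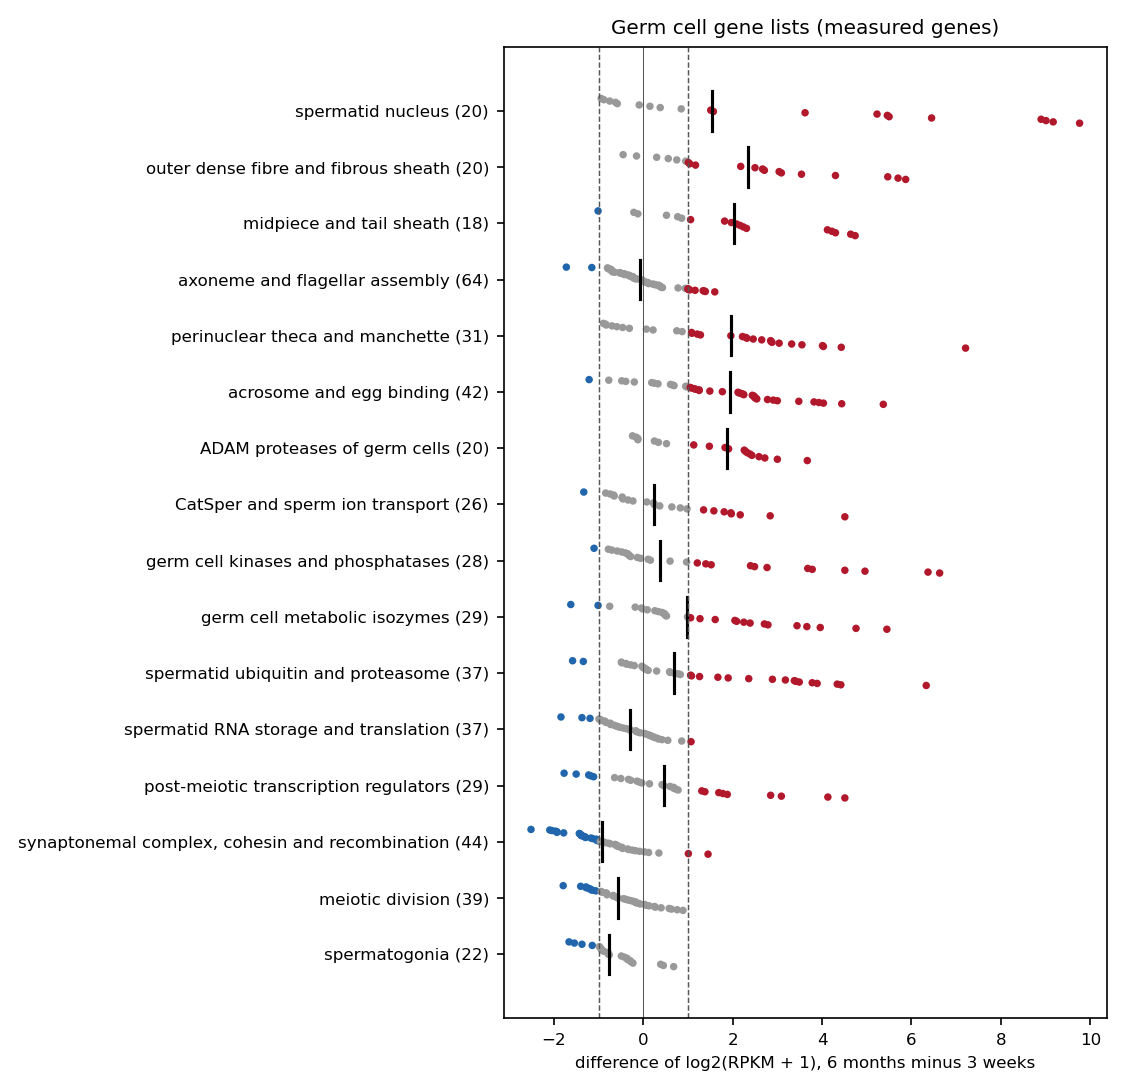
Difference of log2(RPKM + 1), 6 months minus 3 weeks (x axis), of each measured gene of the germ cell lists (rows, number of genes in brackets); red and blue points are past 2-fold (dashed lines) and black bars are list medians. Fibre, midpiece, theca, acrosome and ADAM lists have medians between 1.87 and 2.34, the axoneme list -0.08 and the synaptonemal list -0.92.

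Of the listed genes that shape the sperm head, most were higher and the others were within 2-fold. In the list of the perinuclear theca (the shell around the nucleus) and the manchette (the microtubule skirt that moulds it), 20 of 31 measured genes were higher and 0 lower (median 1.96). Spem1, needed to shed the cytoplasm, had 0.169 RPKM at 3 weeks and 172 at 6 months, on 6 and 6442 reads. Ccin, the basic protein calicin of the theca, stood at 0.334 and 27.7 RPKM. Actin-like genes of the list that were higher included Actl7a at 5.25 and 101 RPKM, Actl7b at 24.7 and 160, Actl9 at 14.3 and 109, Actrt2 at 0.102 and 11.9, and Actrt1 at 0.572 and 7.66. Hook1, a manchette linker, had 13.7 and 25.9 RPKM, which did not pass 2-fold.

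Of 42 acrosome and egg-binding genes, 29 were higher and 1 lower (median 1.94). The acrosome is the enzyme-filled vesicle over the nucleus that opens near the egg. Prss37, a serine protease-like protein, stood at 0.184 and 47.9 RPKM, Prss55 at 0.147 and 23.9, and 1110017D15Rik at 2.84 and 61.6. Izumo1, the sperm protein that binds Juno on the egg, had 0.492 and 2.56 RPKM. A second set was already present at 3 weeks and did not pass 2-fold: proacrosin, Acr, had 17.6 and 29.0 RPKM, Crisp2 118 and 187, and the chaperone Clgn 73.3 and 42.4. Tex101, a germ cell surface protein, was lower (78.9 and 33.6 RPKM), a difference of -1.21 that was -0.68 after rescaling by the median of ratios.

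The ADAM family, membrane proteins related to metalloproteases, fell into the same pair of patterns. Of 20 germ cell ADAM genes, 13 were higher and 0 lower (median 1.87), and the other 7 were abundant at both ages. Adam6a had 0.306 RPKM at 3 weeks and 15.6 at 6 months, Adam6b 0.298 and 9.39, and Adam4 1.20 and 13.5. Against these, Adam2 and Adam3, which act in sperm migration and egg binding, had 66.5 and 56.2 RPKM and 29.9 and 38.0. Adam5 had 60.2 and 55.1 RPKM and Adam32 45.3 and 41.7. Gene structure differed between the sets: 11 of the 13 genes with 1 to 3 exon blocks were higher, against 2 of 7 with 4 or more, Adam1a and Adam34. Several ADAM genes with few exons are close copies of each other (Adam6a and Adam6b, Adam26a and Adam26b), so reads may have been shared between them. This grouping was made after the values were seen.

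**Figure D4:**
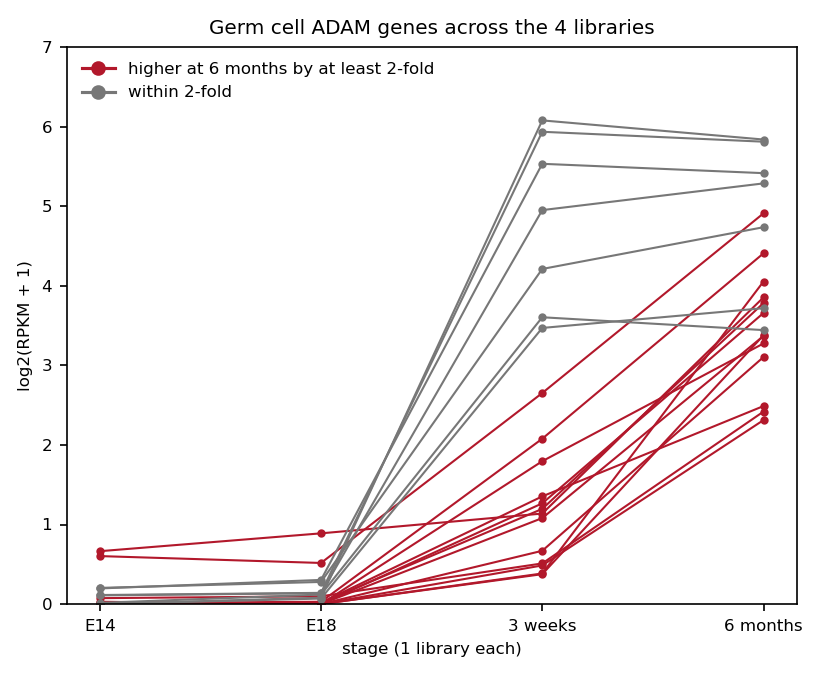
Level of each germ cell ADAM gene as log2(RPKM + 1) (y axis) at the 4 stages (x axis, 1 library each), with genes higher at 6 months in red. The 7 grey genes are near their adult level at 3 weeks, while the 13 red genes reach their highest level at 6 months.

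Few exons went with increase beyond this family. Of 495 measured protein-coding genes with 1 exon block, 23.2% were higher and 8.89% lower. The share higher was 18.2% of those with 2 to 4 blocks, 11.3% with 5 to 10 and 7.58% of 4603 genes with over 10, where 10.8% were lower. Higher genes had a median of 2407 exonic bases and 6 blocks, lower genes 4708 and 11, and all measured genes 3985 and 9. Short single-exon genes include copies made by retroposition, whose reads may be shared with their parents. Within the 21 fibre and sheath genes in the files, the 4 with up to 3 blocks were all higher (median 4.62), beside 10 of 17 with more.

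Sperm ion transport genes were also of both kinds. Of 26 measured genes, 8 were higher (30.8%, beside 11.4% of protein-coding genes) and 1 lower (median 0.25). Catsper1, a pore subunit of the sperm calcium channel, stood at 3.22 RPKM at 3 weeks and 29.1 at 6 months. The pore subunits Catsper4 (2.05 and 10.8 RPKM) and Catsper3 (0.735 and 4.18) were higher too, while Catsper2 had 5.92 and 4.91. The auxiliary subunits Catsperb (12.7 and 6.68 RPKM), Catsperd (16.9 and 20.4) and Catsperg1 (7.67 and 4.18) did not pass 2-fold. Atp1a4, the sodium pump of sperm, had 0.718 and 38.1 RPKM, and Efcab9, a calcium sensor of the channel, 5.69 and 29.1. Tmem30c, a flippase subunit, was lower (11.8 and 4.08 RPKM).

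Kinases and phosphatases of spermatids were higher in 12 of 28 measured cases and lower in 1 (median 0.38). Among testis-specific serine kinases, Tssk6 stood at 0.221 and 100.2 RPKM, Tssk2 at 3.80 and 148, and Tssk3 at 1.08 and 46.2. Tssk6 shares positions with Ndufa13 and Yjefn3 on the other strand. Cabs1, a calcium-binding protein of spermatids, had 0.411 and 139 RPKM. Stk31 was lower (13.3 and 5.66 RPKM, a difference of -1.10). Ppp3cc and Ppp3r2, the subunits of sperm calcineurin, had 57.6 and 46.2 RPKM and 50.2 and 56.2.

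Of 29 germ cell isozymes of energy metabolism, 14 were higher and 2 lower (median 0.99). The glycolytic enzyme Gapdhs, of the tail, stood at 2.73 RPKM at 3 weeks and 162 at 6 months, and Pgk2, another enzyme of glycolysis, at 43.1 and 231. Ldhc, the germ cell lactate dehydrogenase, was already high (227 and 319 RPKM). The ketone body enzymes Oxct2a and Oxct2b, whose similar sequences may share reads, had 0 reads at 3 weeks and stood at 26.1 and 11.6 RPKM at 6 months. Dbil5, a testis acyl-CoA binding protein, had 32.7 and 524 RPKM and overlaps Gemin4 on the other strand. Cyct, the testis cytochrome c, was lower (99.7 and 31.8 RPKM), as was Slc25a31.

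Ubiquitin ligases and related proteins numbered 37, of which 16 were higher and 2 lower (median 0.69). Ubqlnl, a ubiquilin-like gene, had 0.0641 and 84.8 RPKM, the ring finger gene Rnf148 0.213 and 24.9, and the F-box gene Fbxo39 0.0172 and 19.6. Psma8, the proteasome subunit of spermatocytes, was lower (60.8 and 23.5 RPKM), and so was the X-linked peptidase Usp26 (6.28 and 1.43).

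RNA storage and translation genes differed from the structural lists. Of 37 measured genes, 1 was higher (2.7%, beside 11.4% of protein-coding genes) and 3 were lower (8.11%, beside 9.38%). The lower share was thus near that of all protein-coding genes. The median was -0.30, and 0.15 after rescaling by the median of ratios. Ybx2, the main protein bound to stored messages, had 174 and 316 RPKM, and Ddx25, a helicase of their export, 42.2 and 50.6. Cpeb2, which regulates poly(A) tails, was higher (11.2 and 24.6 RPKM). Dazl, an RNA-binding protein of earlier germ cells, was lower (37.6 and 9.77), as were Paip1 (6.59 and 1.94) and Qk (14.4 and 5.76).

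Regulators of post-meiotic transcription moved both ways. Of 29 measured genes, 9 were higher (31%, beside 11.4% of protein-coding genes) and 5 lower (17.2%, beside 9.38%), with a median of 0.46. Crem, an activator of genes in spermatids, had 9.30 and 13.1 RPKM, and Rfx2, a factor of round spermatids, 5.05 and 9.06. Fhl5, the coactivator of Crem, was higher (1.21 and 37.7 RPKM), as were Spz1 (4.27 and 119) and Creb3l4 (2.69 and 30.5). Taf7l, a germ cell subunit of TFIID, was lower (12.1 and 2.82 RPKM), and so was Mybl1, the master regulator of pachytene genes (16.5 and 5.19).

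Genes of meiotic prophase were lower at 6 months. Of 44 measured genes of the synaptonemal complex, cohesin and recombination, 21 were lower (47.7%, beside 9.38% of protein-coding genes) and 2 higher, with a median of -0.92. After rescaling by the median of ratios 11 were lower, with a median of -0.51, and 3 were lower by 4-fold. Sycp2, an axial element protein, stood at 65.9 RPKM at 3 weeks and 10.7 at 6 months, Meiob, which binds single-stranded DNA, at 20.1 and 3.97, and Tex12 at 13.3 and 2.48. Among members within 2-fold, Hspa2, a chaperone of pachytene cells, had 168 and 172 RPKM, and Syce1, of the synaptonemal complex, 128 and 108. Rec8, the meiotic cohesin subunit, was higher (1.94 and 7.03 RPKM). Among meiotic division genes, 9 of 39 were lower (23.1%, beside 9.38% of protein-coding genes) and 0 higher (median -0.57). By the median of ratios, 2 of the 39 were lower and 4 higher (median -0.05). Ccne2 (16.4 and 4.04 RPKM), Ccnb3 (2.83 and 0.447) and Cks2 (16.3 and 6.12) led the 9 lower genes. Ccna1, the cyclin of meiotic divisions, had 14.4 and 21.9 RPKM.

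Of 37 spermatogonial genes in the files, 22 were measured, 4 were lower (18.2%, beside 9.38% of protein-coding genes) and 0 higher (median -0.78). Stra8, the retinoic acid-induced gate to meiosis, stood at 4.80 and 0.837 RPKM, Itgb1 at 20.3 and 6.33 and Dmrt1 at 7.49 and 2.29, the last being -0.97 after rescaling by the median of ratios. Id4, a gene of stem cells, had 13.9 and 7.07 RPKM. Of the 37 genes, 30 had the greater RPKM at 3 weeks and 7 at 6 months. Those 7 included Egr4 (0.864 and 1.98 RPKM) and Etv5 (1.58 and 2.37), neither past 2-fold. Gfra1 (0.171 and 0.518 RPKM) and Lhx1 (0.0868 and 0.473) were also among them, below 1 RPKM at both ages. Proliferation genes had 6 of 26 measured members lower (23.1%, beside 9.38% of protein-coding genes) and 2 higher (7.69%, beside 11.4%), with a median of -0.69. Mki67 stood at 4.28 and 0.785 RPKM, Hells, a chromatin remodeller, at 2.56 and 0.527, and Dnmt1, the maintenance DNA methyltransferase, at 6.23 and 2.25. Fen1, the flap endonuclease, was higher at 0.815 and 4.51 RPKM. Rescaling by the median of ratios left 2 proliferation genes lower, and none were lower by 4-fold.

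Of 24 measured steroid synthesis genes, which Leydig cells use to make testosterone, 7 were higher (29.2%, beside 11.4% of protein-coding genes) and 2 lower (median 0.60), and 13 were higher after rescaling by the median of ratios. Cyp17a1, which makes androgen precursors, had 37.8 RPKM at E18, 23.6 at 3 weeks and 119.8 at 6 months, and Cyp11a1, the first enzyme of the path, 29.5, 9.43 and 47.7. Hsd17b3, which makes testosterone, stood at 12.5, 1.35 and 9.21 RPKM. These genes were thus lowest of the 3 stages at 3 weeks. Sult1e1, an oestrogen sulphotransferase of adult Leydig cells, had 0.538 and 9.44 RPKM and Hsd3b6, the adult isoform, 5.57 and 16.2. Srd5a1, which reduces testosterone and marks immature Leydig cells, was lower (2.25 and 0.243 RPKM). Cyp21a1 was higher (0.0551 and 4.65 RPKM) and overlaps Tnxa.

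Hormones and identity genes of Leydig cells split. Of 18 measured genes, 4 were higher (22.2%, beside 11.4% of protein-coding genes) and 3 lower (16.7%, beside 9.38%). Their median was 0.03, and -0.14 when scaled over protein-coding genes. Insl3, the hormone of testis descent, had 33.7 RPKM at E18, 19.6 at 3 weeks and 357 at 6 months, a ratio between the last pair of 18.2 (95% interval 16.5 to 20.2). Agt, angiotensinogen, stood at 2.62 and 67.5 RPKM and Ptgds, prostaglandin D synthase, which the Sertoli list also holds, at 1.05 and 17.3. Nr4a1, an immediate early nuclear receptor that the stress list also holds, had 0.892 and 4.16 RPKM. Igf1 (4.58 and 0.788 RPKM) and the progenitor transcription factors Tcf21 (4.06 and 0.911) and Nr2f2 (3.58 and 0.808) were lower. Of 24 cholesterol genes 4 were higher (16.7%, beside 11.4% of protein-coding genes) and 1 lower (4.17%, beside 9.38%). The median was 0.08, and -0.11 over protein-coding genes. Scarb1, the lipoprotein receptor, had 3.44 and 10.9 RPKM, Fdps 4.13 and 10.1, and the lipase Lipe, which germ cells also express, 1.38 and 21.2. Soat1, which esterifies cholesterol, was lower (9.70 and 4.22 RPKM).

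Of 24 measured transcription factors and signals of Sertoli cells, 4 were lower (16.7%, beside 9.38% of protein-coding genes) and 1, Ptgds, higher (median -0.63). By the median of ratios 1 was lower. Of the 32 genes of this list in the files, 30 had the greater RPKM at 3 weeks, and 8 were below 1 RPKM at both ages. The median difference of all measured protein-coding genes was itself -0.27. Rhox8, an androgen-regulated homeobox gene, had 9.50 and 1.67 RPKM, and Kitl, the ligand of KIT, 5.60 and 1.64. Sox9 stood at 3.08 and 1.49 RPKM, Wt1 at 7.07 and 3.51 and Fshr, the FSH receptor, at 1.25 and 0.450, none past 2-fold on this scale. Of 28 secreted and metabolic proteins, 2 were higher (7.14%, beside 11.4% of protein-coding genes) and 1 lower (3.57%, beside 9.38%). Their median was -0.24, and 0.15 by the median of ratios. Cst9 had 46.6 and 49.2 RPKM, Clu 65.5 and 49.6 and Defb19 46.3 and 62.2, while the binding globulin Shbg was lower (8.27 and 1.91). The pair of higher genes, Cst8 and Lcn2, are also in the epididymis list, where their values are given. Among 28 genes of the blood-testis barrier, 2 were lower (7.14%, beside 9.38% of protein-coding genes) and 1 higher (median -0.61). Cldn11, its main claudin, had 29.0 and 16.9 RPKM, and Cldn3, a claudin of new junctions, was higher (1.52 and 6.30). Krt18, a keratin of immature Sertoli cells, was lower (1.37 and 0.160 RPKM).

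Matrix and contractile genes were lower at 6 months. Of 31 measured stromal genes, 18 were lower (58.1%, beside 9.38% of protein-coding genes) and 0 higher, with a median of -1.03. By the median of ratios 12 were lower. Col3a1 had 62.5 RPKM at E18, 14.3 at 3 weeks and 0.774 at 6 months, and Col1a1 23.6, 5.52 and 0.230. Elastin, Eln, stood at 44.7, 13.6 and 0.473 RPKM, so these genes were lower at each step after E18. Of 16 basement membrane genes 8 were lower and 0 higher, led by Col18a1 (5.40 and 0.816 RPKM), Col4a2 (8.89 and 2.33) and Col4a3 (3.01 and 0.353). In the peritubular contractile list 9 of 14 were lower and 1 higher (median -1.05), and 3 were lower by the median of ratios. Acta2, the smooth muscle actin of peritubular cells, had 24.5 and 6.72 RPKM, Tpm1 7.53 and 1.62 and Myh11 4.84 and 0.808. Actg2, the enteric smooth muscle actin, went the other way, with 226 RPKM at E18, 2.73 at 3 weeks and 57.5 at 6 months (3214 reads).

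Epididymal and some adipose markers were lower along with the matrix genes. In the epididymis list, 11 of 33 genes were measured, 8 were lower and 3 higher, and 5 had no read at either age. Crisp1, a secreted protein of the epididymis, had 41.5 RPKM at 3 weeks (1995 reads) and 0.0197 at 6 months (1 read), Spink8 22.0 and 0.739, Cuzd1 11.4 and 0.669, and Cd52 8.83 and 0.235. Adam7, Rnase12 and Defb2 had 2.38, 2.11 and 1.16 RPKM at 3 weeks and 0 reads at 6 months. Without the 3 genes that the Sertoli list also holds, the list summed to 122 RPKM at 3 weeks and 16.7 at 6 months, after 4.69 at E18. Cst8, a cystatin (1.07 and 63.2 RPKM), and Lcn2, a lipocalin (0.755 and 42.1), were higher. Of 9 measured adipose genes, 4 were lower, led by Fabp4 (24.4 and 1.70 RPKM), Car3 (4.88 and 0.265) and Cfd (6.80 and 1.42). Acsl1 (2.22 and 26.8 RPKM) and Dgat2 (5.05 and 39.7) were higher. The other 3 were within 2-fold: Adipoq (2.39 and 3.56 RPKM), Cidea (2.25 and 1.51) and Retn (1.27 and 0.425). The part of such tissue in the matrix and contractile differences was not tested.

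Endothelial, macrophage and blood markers changed in few members. Of 24 endothelial genes, 5 were measured and 0 passed 2-fold, with Cdh5 at 2.62 and 1.41 RPKM. Aif1 was the 1 macrophage gene past 2-fold of 12 measured (0.731 and 7.59 RPKM), while Lyz2 stood at 11.5 and 11.7. Of 5 measured red cell genes 2 were higher, Hemgn (0.0352 and 3.58 RPKM) and Alas2 (1.70 and 4.43).

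**Figure D5:**
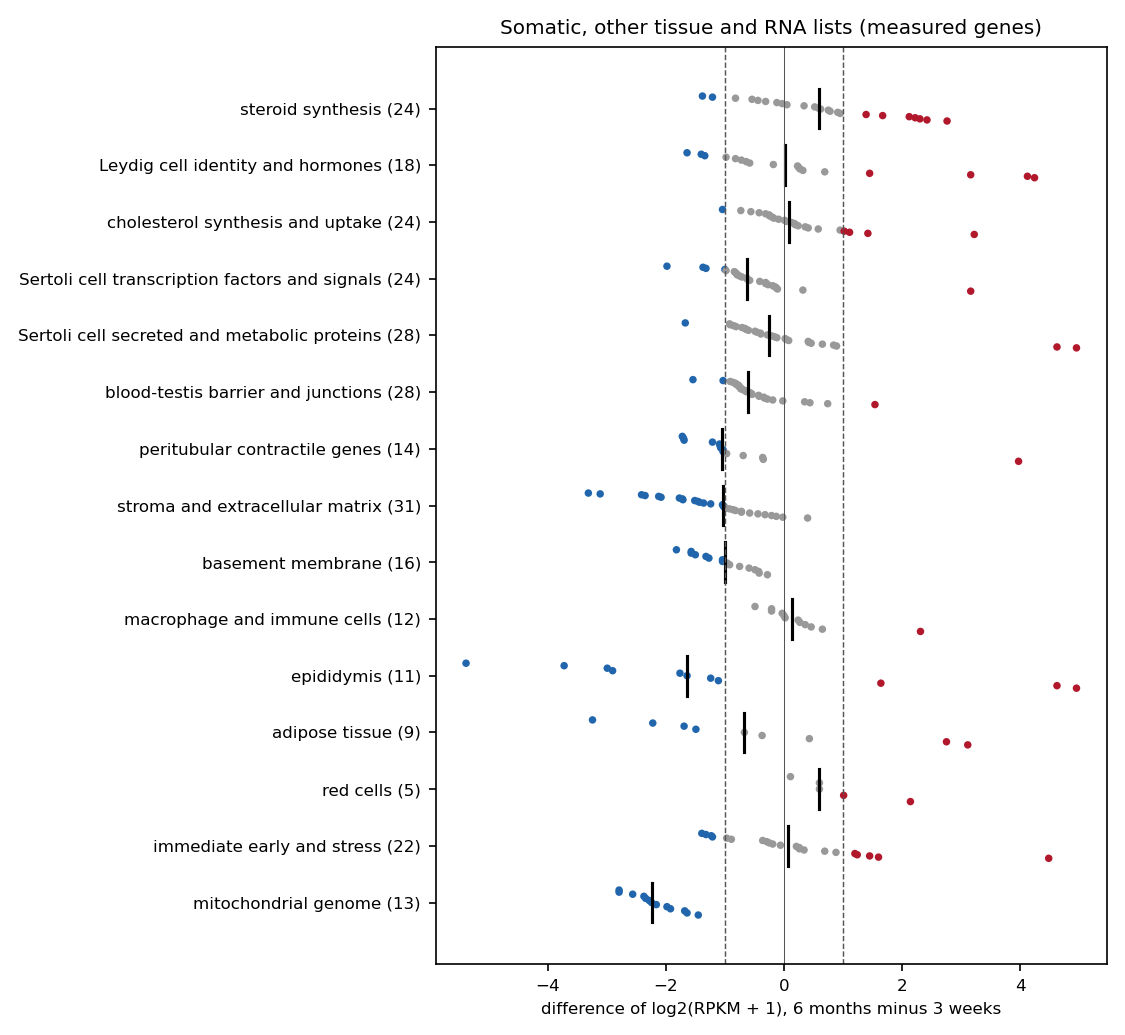
Difference of log2(RPKM + 1), 6 months minus 3 weeks (x axis), of each measured gene of the somatic, other tissue and RNA lists (rows, number of genes in brackets); red and blue points are past 2-fold (dashed lines) and black bars are medians. Steroid synthesis has a median of 0.60, the stroma list -1.03 and the contractile list -1.05, and all 13 mitochondrial genes are lower.

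Mitochondrial and stress transcripts differed as well. All 13 protein-coding genes of the mitochondrial genome were lower at 6 months (median -2.24, and 12 of them by the median of ratios), with mt-Atp8 at 986 and 142 RPKM, mt-Nd2 at 550.0 and 78.9, mt-Nd4l at 293 and 48.7 and mt-Co1 at 1414 and 441. Stress and immediate early genes had 5 of 22 higher (22.7%, beside 11.4% of protein-coding genes) and 4 lower (18.2%, beside 9.38%). Jund (0.993 and 5.04 RPKM) and Hspa1l, the heat shock protein of spermatids (0.346 and 29.1), were higher, and the chaperone Hsp90ab1 (42.9 and 15.8) was lower. Their part in the other differences was not tested. Among protein-coding genes with established symbols and a mean of at least 5 RPKM, the 12 largest decreases also held Calm2 and Ssb. Calm2, which encodes calmodulin, had 48.1 and 6.71 RPKM, and Ssb, the La RNA-binding protein, 41.2 and 6.80. Gene models lay outside this ranking, among them Gm10800 (716 and 4.83 RPKM).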

How the data were processed

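RNA of mouse testis was sequenced with a directional kit, per the labels' protocols. The labels differ on selection, naming ribosomal RNA depletion alone or with poly(A) isolation. Reads were aligned with TopHat2 to mm10, per the submitters' processing notes. The authors deposited RPKM per entry. The sources used here do not give the counter, its annotation or its use of strand.

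Symbols were matched to GENCODE vM21 on GRCm38 (the same assembly as mm10) for type and position. Differences are of log2(RPKM + 1), where the pseudocount of 1 makes changes of low genes look smaller, and 1 library per stage allows no test. Reads were recovered from the steps between RPKM values (whole reads for 99.998% of 98242 entries above 0, at a relative tolerance of 1e-09), and gave exact Clopper-Pearson 95% intervals. Reads behind the RPKM numbered 38903334 at E14 and 34228140 at E18. A common factor may be lost, so intervals may be too wide. At 3 weeks, 3 reads in a gene model of 1 kb are 0.0884 RPKM, and at 6 months 0.0838. The procedure was tested on simulated data.

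Members and lists were chosen with earlier results of these data known, and the lists were trimmed after the files had been opened. The named genes are, per list, the 3 largest differences in the leading direction and the largest in the other, and the 12 largest each way among established symbols with a mean of at least 5 RPKM. Other members of the lists are named after their values were seen, and so were the ADAM and exon groupings, the name groups, the word TGANNTCA and the split by CpG. The rule for promoters is the most abundant spermatid nucleus genes, and those of Lelp1, Gsg1 and Akap4 were added later. Python 3.11.15, pandas 2.3.3 and scipy 1.17.1 were used.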

Additional observations from a re-analysis of the deposited data

How the results depend on the processing

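No paired analysis was possible because each stage has 1 library. For the same reason no replicate could be left out. Over all entries, 4182 were higher and 6062 lower. The counts were 2331 higher at a minimum of 5 RPKM, 1376 higher and 775 lower at a 4-fold limit, 6926 higher and 2799 lower by the median of ratios, 11905 lower at a pseudocount of 0.1, and 1208 higher and 996 lower among protein-coding genes alone. With the counting interval required to lie on 1 side of 1, and over ribosomal protein genes, the counts stayed within 1.5 times. Dropping the filter could not change them, because an entry past 2-fold on this scale has at least 1 RPKM at 1 of the ages.

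Among lists with at least 5 members past 2-fold in the leading direction, the counts that moved by more than 1.5 times at 4-fold were the axoneme (0 higher), ion transport (3), transcription regulators (4) and stress (1) lists, and, for lower members, the synaptonemal (3), meiotic division (0), proliferation (0), contractile (0), stroma (6), basement membrane (0), epididymis (4) and mitochondrial (8) lists. By the median of ratios, 14 transcription regulators and 13 steroid genes were higher, and 11 synaptonemal, 2 meiotic division, 2 proliferation and 3 contractile genes were lower. Over ribosomal protein genes 5 contractile genes were lower, and over protein-coding genes 4 axoneme genes were higher. At a minimum of 5 RPKM, 2 proliferation, 5 contractile, 11 stroma, 2 basement membrane and 5 epididymis genes were lower and 2 stress genes higher, and at a pseudocount of 0.1, 13 proliferation genes were lower. The counts of the nucleus, fibre and sheath, midpiece, theca, acrosome, ADAM, kinase, isozyme and ubiquitin lists stayed within 1.5 times under these settings. Among lists with fewer such members, at 4-fold, 0 spermatogonial (4 at 2-fold), 0 Sertoli transcription factor (4), 0 RNA storage (3), 0 barrier (2) and 2 adipose genes (4) were lower, and 1 cholesterol (4) and 1 red cell gene (2) were higher. At a pseudocount of 0.1, 12 spermatogonial, 11 Sertoli transcription factor, 9 barrier and 6 RNA storage genes were lower. By the median of ratios, 2 spermatogonial, 1 Sertoli transcription factor, 1 RNA storage and 1 barrier gene were lower. Under that rescaling 5 secreted Sertoli and 4 red cell genes were higher (2 and 2 without it). Over protein-coding genes, 8 spermatogonial, 4 barrier and 9 RNA storage genes were lower and 2 cholesterol genes higher. Of the 116 named genes, 69 were past 4-fold, and 103, 113 and 113 stayed past 2-fold under the 3 rescalings. They had been picked for large differences past 2-fold, so their direction could not turn under these settings. The cause of these shifts was not tested. With 1 library per age, depth limits only counting precision, and differences between animals were not measured.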

Other observations

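Several groups outside the lists above were read from the names of genes, chosen after their values were seen, and without a test. Of 25 measured genes named Spata, 15 were higher and 2 lower (median 2.13), with Spata20 at 5.79 RPKM at 3 weeks and 163 at 6 months, while Spata22, a meiotic recombination gene, stood at 5.73 and 1.58. Of 13 Ttll genes, which add glutamates or glycines to tubulin, 6 were higher and 0 lower (8 by the median of ratios, 4 over protein-coding genes), led by Ttll10 (1.67 and 33.5 RPKM). The Cypt genes, which encode small basic proteins of spermatids and lie in part on the X chromosome, were near 0 at both fetal stages: Cypt12 stood at 3.36 and 184 RPKM and Cypt4 at 2.88 and 106, and their similar sequences make each value uncertain. Of 10 measured Srsf genes, which encode serine and arginine-rich splicing factors, 7 were lower and 0 higher (median -1.06), with Srsf1 at 9.53 and 3.28 RPKM and Srsf5 at 19.2 and 7.47, though 2 passed by the median of ratios and 0 at 4-fold. Of 13 Prpf genes, also of splicing, 3 were lower (23.1%, beside 9.38% of protein-coding genes) and 0 higher. Of 225 genes named Zfp, 38 were lower (16.9%, beside 9.38%) and 6 higher (2.67%, beside 11.4%). The balance of Zfp genes was 11 lower against 16 higher by the median of ratios.

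By chromosome, the X, which is silenced in meiosis, lay outside the range of the autosomes in both directions, and so did the Y, with 15.8% higher and 21.1% lower of 19 measured genes. The shares of the Y rest on 3 and 4 genes. Of the 383 measured protein-coding genes of the X, 19.6% were higher and 17.2% lower. The autosomes ranged from 7.89% to 14% higher and from 4.54% to 13.9% lower. Of the X genes, Akap4 was the most increased and Spin2e (8.31 and 0.317 RPKM) the most decreased. Its relative Spin2f followed (5.31 and 0.219), and these relatives may share reads. By gene type, 25.4% of 1262 long noncoding RNA genes of GENCODE were higher and 5.55% lower, against 11.4% and 9.38% of protein-coding genes. Among them 1700016P04Rik had 0.0687 and 48.0 RPKM and 4930571K23Rik 2.80 and 164. Of 890 entries of other annotated types, 32% were lower and 14.8% higher. Rprl3 stood at 3283 and 11.4 RPKM and Gm26461 at 3385 and 21.6, while Gm24105 stood at 53.3 and 738.5. The part of RNA selection in these differences was not tested. Of 4136 entries with names that begin with DQ, 51.8% were lower and 0.822% higher, with a median RPKM of 20.1 and 9.01, and 29.6% were lower by the median of ratios.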
